A study of Mus musculus with 24 samples.

Results

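Guanylate-binding proteins (GBPs) and immunity-related GTPases (IRGs) are large GTPases that cells make in quantity after exposure to interferon, above all interferon gamma. They gather on the vacuoles and membranes that shelter intracellular bacteria and parasites, break them open and mark them for destruction, and GBPs also help inflammasomes to sense bacterial products. The liver is a site where interferon induces them, in hepatocytes as well as in resident macrophages. The 10 genes described here were chosen by their names in the count and FPKM tables: the GBP genes Gbp2, Gbp3, Gbp6 and Gbp7, the regulatory IRG genes Irgm1, Irgm2 and Igtp, and the effector IRG genes Iigp1, Tgtp1 and Tgtp2. They are 10 of the 55421 genes listed, and all 10 were among the 13847 genes that passed the filter on low counts.

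The values come from polyA RNA of hepatocytes that were isolated by perfusion of the liver of aged male C57BL/6J mice. The ND+veh group (n = 8) ate normal diet with the vehicle (eudragit, the capsule material without drug) throughout. The HFD+veh group (n = 7) had the same vehicle from 4 months of age and was moved at 18 months to a high-fat diet with 60% of calories from fat, for 9 weeks. The HFD+eRapa group (n = 9) ate encapsulated rapamycin (eRapa) at 42 ppm from 4 months and was moved to the same high-fat diet at 18 months, so that drug exposure began long before the diet changed and no group had eRapa on normal diet. Rapamycin inhibits mTORC1, a kinase complex that promotes growth and protein synthesis. Each library is 1 mouse, and the labels name a single batch.

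Gene counts summed to between 17739252 and 25945134 per library. The hepatocyte marker genes were abundant in every library, at a summed level of 47960 to 159105 CPM (counts scaled to one common library size). Markers of other liver cells were present too. For each of these cell types the median marker sum was highest in HFD+veh, with ranges that overlapped those of the other groups. The 10 macrophage and Kupffer cell markers summed to 41.7 to 1184 CPM in ND+veh, 165 to 4540 CPM in HFD+veh and 13.5 to 994 CPM in HFD+eRapa. Because the RNA is bulk, a change in the number of such cells and a change in RNA per cell cannot be told apart. The ND+veh replicate 4 library stood apart before any comparison: it was the highest of its group for 9 of the 10 GTPase genes and had the lowest hepatocyte marker sum of its group, at 54418 CPM, whereas its macrophage sum of 397 CPM was below those of ND+veh replicates 6 and 8, at 693 and 1184 CPM. It was kept, and results that rest on it are given with and without it.

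Interferon acts on such genes through short promoter elements, and these are shown because the GTPase genes share them. The interferon-stimulated response element was searched as GAAANNGAAA and the gamma-activated site as TTCNNNGAA, each on both strands, in windows of 250 bases before to 50 after each RefSeq start (GRCm38.p6). Windows of 8 of the 10 genes were searched. Those of Gbp6 and Iigp1 were not searched, so the counts below do not cover these genes. A response element match was present in 8 of these 8 genes, against 3.43% of 32817 promoter windows, and a gamma-activated site match in 5 of 8, namely Gbp7, Igtp, Irgm2, Tgtp1 and Tgtp2, against 8.29%. Both matches together were found in 5 of 8, against 0.451% of all windows. Of 9 other genes of these 2 families with a searched window, 5 had a response element match and 3 a gamma-activated site match. Gm5431, 9930111J21Rik2, Ifi47 and Irgq had no response element match. The short stretches below are written 5′ to 3′ on the strand of the gene with the matched letters in capitals.
Igtp: catTTCTAGGAActGAAACTGAAAgct
Irgm2: catTTCCAGGAActGAAACTGAAAgct
Tgtp1: catTTCCAGGAAtcGAAACTGAAAcct
Tgtp2: catTTCCAGGAAtcGAAACCGAAAcct
Irgm1: tttcaaGAAATAGAAACCGAAActgatt
Gbp2: ctcttttagTTTCACTTTCactgtctta
Gbp3: acacagTTTCAGTTTCTATTTCccagat
Gbp7, response element: tgtgtgcagTTTCAGTTTCagttctcca
Gbp7, gamma-activated sites: TTCCAGGAAaagcagaagcTTCTCAGAA

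The 4 IRG genes Igtp, Irgm2, Tgtp1 and Tgtp2 carried the same arrangement, a gamma-activated site followed after 2 bases by a response element. Over these 27 bases, Igtp and Irgm2 differed at 1 base, Tgtp1 and Tgtp2 at 1 base, and the other pairs at 3 to 5 bases. Irgm1 and Gbp3 each held 2 response element matches that overlapped. In Gbp2, Gbp3 and Gbp7 the response element match lay on the strand opposite to the gene and appears above as its reverse complement. For Gbp3, which has 2 RefSeq starts in the table, only the window shown held a match. The stretches lay at chr11:58199508-58199534 (Igtp, plus strand), chr11:58214899-58214925 (Irgm2, plus), chr11:48992311-48992337 (Tgtp1, minus), chr11:49064270-49064296 (Tgtp2, minus), chr11:48871429-48871456 (Irgm1, minus), chr3:142620595-142620622 (Gbp2, plus), chr3:142559993-142560020 (Gbp3, plus), and chr3:142530274-142530301 and chr3:142530230-142530257 (Gbp7, plus). In the Gencode annotation used here, the Irgm1 stretch and 21 bases of the Gbp2 stretch lay in an exon of the same gene, the Irgm2 stretch in an intron of Irgm2, the Tgtp1 stretch in introns of Tgtp1 and of Olfr56 and the Tgtp2 stretch in an intron of Olfr56, and the others lay outside annotated genes. A match is a match of letters and does not show binding.

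Mice without eRapa were compared first, high-fat against normal diet. All 10 GTPase genes rose with the diet, in a comparison where 16.0% of the 13847 genes tested were called higher (edgeR's quasi-likelihood test, Benjamini-Hochberg adjusted p below 0.05). The log2 fold changes ran from 0.76 for Iigp1 to 2.67 for Gbp2, with a median of 1.75, against a median of 0.05 over all genes tested. In none of the 10 did all 7 HFD+veh animals lie above all 8 ND+veh animals, against 1.21% of all genes, and ND+veh replicate 4 was above the lowest HFD+veh animal for all 10. Without that one library the groups did not overlap for 5 genes, Gbp3, Gbp7, Irgm1, Irgm2 and Tgtp1, against 2.24% of all genes, and 10 of 10 were called higher, against 14.4%.

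Among mice on the high-fat diet, eRapa was then compared with vehicle. All 10 genes were lower with eRapa, where 21.1% of all genes tested were called lower, and the log2 fold changes ran from -3.50 for Tgtp2 to -0.57 for Iigp1 with a median of -2.03 (all genes, -0.04). For Gbp3, Irgm2 and Tgtp1 every HFD+eRapa animal lay below every HFD+veh animal, which was so for 1.29% of all genes. The HFD+veh animals enter both comparisons, so the 2 results are not independent of each other. The third comparison, HFD+eRapa against ND+veh, called 0 of 10 (edgeR), with adjusted p from 0.0607 to 0.837, where 6.93% of all genes were called higher and 6.56% lower.

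**Figure D1:**
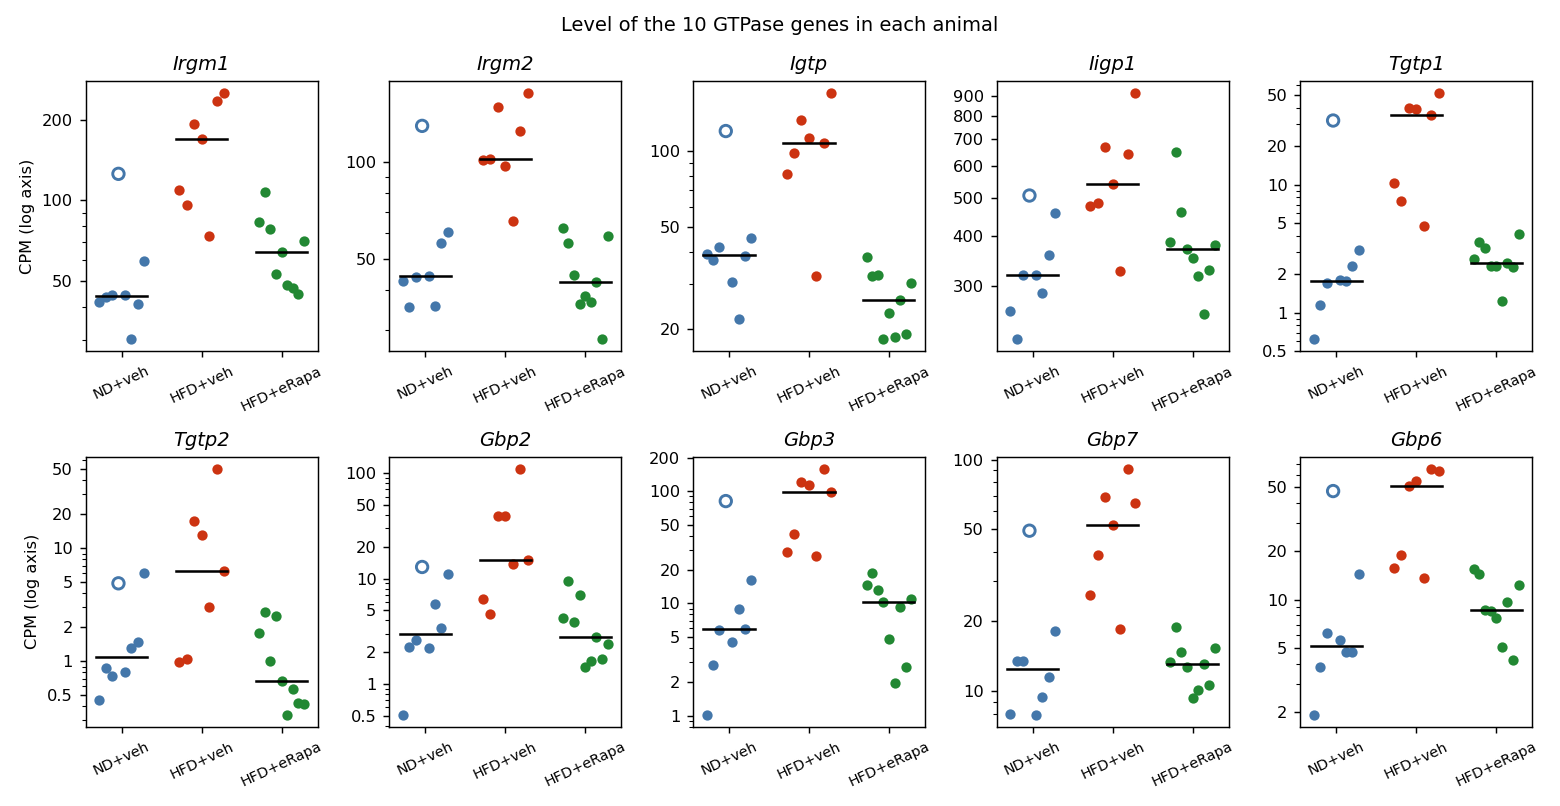
Each point is 1 animal, the vertical axis is CPM on a log scale, and the black line is the group median, for ND+veh (blue, n = 8), HFD+veh (red, n = 7) and HFD+eRapa (green, n = 9). The open blue circle is ND+veh replicate 4, which lies among the HFD+veh animals for most genes, while no HFD+eRapa animal reaches the lowest HFD+veh animal for Gbp3, Irgm2 and Tgtp1.

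Irgm1, Irgm2 and Igtp encode the regulatory IRG proteins, which sit on the membranes of the cell's own organelles and hold the effector IRG proteins in their inactive form there. Irgm1 (chr11:48861968-48871683) ran from 30.3 to 126 CPM in ND+veh (median 43.9), from 73.8 to 251 CPM in HFD+veh (median 169) and from 44.6 to 108 CPM in HFD+eRapa (median 63.9). Every HFD+veh animal was above the ND+veh animals other than replicate 4, and 6 of 9 HFD+eRapa animals were below the lowest HFD+veh animal. Its log2 fold change was 1.58 with the diet (SE 0.29, edgeR adjusted p = 0.000855), the smallest adjusted p of the 10 genes, and -1.28 with eRapa (SE 0.28, edgeR adjusted p = 0.00219).

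Irgm2 (chr11:58199618-58222782) ran from 35.5 to 129.6 CPM in ND+veh (median 44.0), 65.5 to 164 CPM in HFD+veh (median 102) and 28.1 to 62.1 CPM in HFD+eRapa (median 42.3). The HFD+eRapa and HFD+veh ranges did not overlap. It rose by 1.03 with the diet (log2, SE 0.25, edgeR adjusted p = 0.00576) and was 1.36 lower with eRapa (log2 fold change -1.36, SE 0.24, edgeR adjusted p = 0.000441). Igtp (chr11:58199556-58207591), which encodes the protein also named Irgm3, ran from 21.8 to 119.7 CPM in ND+veh (median 39.1), 32.2 to 168 CPM in HFD+veh (median 107) and 18.2 to 38.2 CPM in HFD+eRapa (median 25.9). Only HFD+veh replicate 5, at 32.2 CPM, fell within the range of the HFD+eRapa animals. Igtp had the smallest adjusted p of the 10 genes for eRapa (log2 fold change -1.98, SE 0.30, edgeR adjusted p = 0.000109) and rose by 1.16 with the diet (log2, SE 0.31, adjusted p = 0.0109). Igtp and Irgm2 overlap by 162 exonic bases on one strand, which is 8.01% of the exonic length of Igtp and 4.39% of that of Irgm2.

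Iigp1, on chromosome 18, and the neighbouring pair Tgtp1 and Tgtp2 encode effector IRG proteins, which load onto pathogen vacuoles and disrupt them. Iigp1 was by far the most abundant of the 10 per transcript length, with a median of 110.0 FPKM (fragments per kilobase of transcript, scaled to sequencing depth) in ND+veh, 212 FPKM in HFD+veh and 123 FPKM in HFD+eRapa. It also changed least: it ran from 221 to 506 CPM in ND+veh (median 320.0), 328 to 912 CPM in HFD+veh (median 540.4) and 255 to 650.1 CPM in HFD+eRapa (median 371), so that all 3 ranges overlapped. Its log2 fold change was 0.76 with the diet (SE 0.21, edgeR adjusted p = 0.0119). With eRapa it was -0.57 (SE 0.20, edgeR adjusted p = 0.0320), and this call was lost when any one of 8 libraries was left out, HFD+veh replicates 3, 4, 6 and 7 and HFD+eRapa replicates 5, 6, 7 and 8, with values from -0.57 to -0.42 and adjusted p from 0.0524 to 0.0944. The call was also lost in 7 of 11 other alternatives, with voom, with no expression filter, with the replicate block (-0.56, adjusted p = 0.0987), with either marker score, with only the 2 groups compared and without ND+veh replicate 4 and HFD+veh replicate 6.

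Tgtp1 (chr11:48985327-48994172) was close to absent in all ND+veh animals but one. It was 0.62 to 3.08 CPM in 7 of them and 31.9 CPM in replicate 4, whereas HFD+veh ran from 4.81 to 52.0 CPM (median 35.1) and HFD+eRapa from 1.24 to 4.16 CPM (median 2.43). All HFD+veh animals were above the 7 lower ND+veh animals and above all HFD+eRapa animals. The diet difference was 2.26 on the log2 scale (SE 0.69, edgeR adjusted p = 0.0206) and 3.87 without ND+veh replicate 4 (adjusted p = 1.16e-05). The call was lost with no expression filter (adjusted p = 0.0506), with only the 2 groups compared (0.0628) and with the immune marker score (0.217). The eRapa difference was -3.33 (SE 0.69, edgeR adjusted p = 0.00151).

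Tgtp2 (chr11:49057194-49064206) had the largest ratio of highest to lowest animal within HFD+veh among the 10 genes, at 0.99 to 50.4 CPM (median 6.37), against 0.45 to 6.06 CPM in ND+veh (median 1.09) and 0.34 to 2.74 CPM in HFD+eRapa (median 0.67). HFD+veh replicates 1 and 2, at 0.99 and 1.06 CPM, were just below the ND+veh median, and replicate 6 alone held 50.4 CPM. The diet difference of 2.66 (log2, SE 0.75, edgeR adjusted p = 0.0152) was 1.69 without HFD+veh replicate 6 and no longer called (adjusted p = 0.0899); it was also not called in 5 of 10 other alternatives, among them voom (adjusted p = 0.0674) and the replicate block (2.57, adjusted p = 0.0537), and the eRapa difference of -3.50 (SE 0.75, edgeR adjusted p = 0.00199) was -2.52 without it (adjusted p = 0.0118). Tgtp1 and Tgtp2 are near-identical copies: 73.2% of the 100-base stretches of Tgtp1 transcripts and 76.8% of those of Tgtp2 occur in transcripts of other genes, so how reads were divided between the pair is uncertain. The count ratio of Tgtp1 to Tgtp2 varied from 0.51 to 10.4 between animals, being 0.70 in HFD+veh replicate 6 and 8.16 in HFD+veh replicate 7.

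Gbp2, Gbp3 and Gbp7 lie in one cluster on chromosome 3, with Gbp2b between Gbp3 and Gbp2, and Gbp6 lies on chromosome 5; their proteins assemble into coats on bacteria and vacuoles. Gbp2 (chr3:142620602-142638008) ran from 0.51 to 12.9 CPM in ND+veh (median 2.99), 4.58 to 109 CPM in HFD+veh (median 14.9) and 1.43 to 9.55 CPM in HFD+eRapa (median 2.81). HFD+veh replicate 6 was at 109 CPM and the next animal at 39.6 CPM. The differences of 2.67 with the diet (log2, SE 0.66, edgeR adjusted p = 0.00692) and -3.08 with eRapa (SE 0.64, adjusted p = 0.00156) became 1.89 (adjusted p = 0.0372) and -2.30 (adjusted p = 0.00917) without that animal. No 100-base stretch of Gbp2 occurs in another gene.

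Gbp3 (chr3:142560026-142573209) separated the groups more evenly. It was 1.02 to 16.1 CPM in 7 ND+veh animals and 81.8 CPM in replicate 4, 26.4 to 158 CPM in HFD+veh (median 99.0) and 1.97 to 18.8 CPM in HFD+eRapa (median 10.4). The 7 lower ND+veh animals and the 9 HFD+eRapa animals all lay below the lowest HFD+veh animal. The log2 difference was 2.40 with the diet (SE 0.70, edgeR adjusted p = 0.0176), 3.66 without ND+veh replicate 4 (adjusted p = 0.000202), and -3.12 with eRapa (SE 0.69, edgeR adjusted p = 0.00240).

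Gbp7 (chr3:142530342-142550149) changed by less than the other GBP genes and had the smallest standard errors among them. It ran from 7.91 to 49.4 CPM in ND+veh (median 12.5), 18.5 to 91.2 CPM in HFD+veh (median 52.2) and 9.37 to 19.0 CPM in HFD+eRapa (median 13.1), and 8 of 9 HFD+eRapa animals were below the lowest HFD+veh animal. Its log2 differences were 1.64 (SE 0.36, edgeR adjusted p = 0.00331) and -1.97 (SE 0.35, edgeR adjusted p = 0.000461). Gbp6 (chr5:105270702-105293698) ran from 1.93 to 47.4 CPM in ND+veh (median 5.15), 13.7 to 65.0 CPM in HFD+veh (median 50.7) and 4.20 to 15.5 CPM in HFD+eRapa (median 8.59). Its diet difference of 1.85 (SE 0.55, edgeR adjusted p = 0.0183) was 2.72 without ND+veh replicate 4 and 1.65 without HFD+veh replicate 6, where the call was lost (adjusted p = 0.0503), as it was with only the 2 groups compared (adjusted p = 0.0502), and its eRapa difference was -2.08 (SE 0.53, edgeR adjusted p = 0.00553). The level of Gbp6 is uncertain, since 64.5% of its 100-base stretches also occur in other genes, mostly Gm43302 (59.0%) and Gbp10 (36.3%), and it shares exons with Gm43302.

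**Figure D2:**
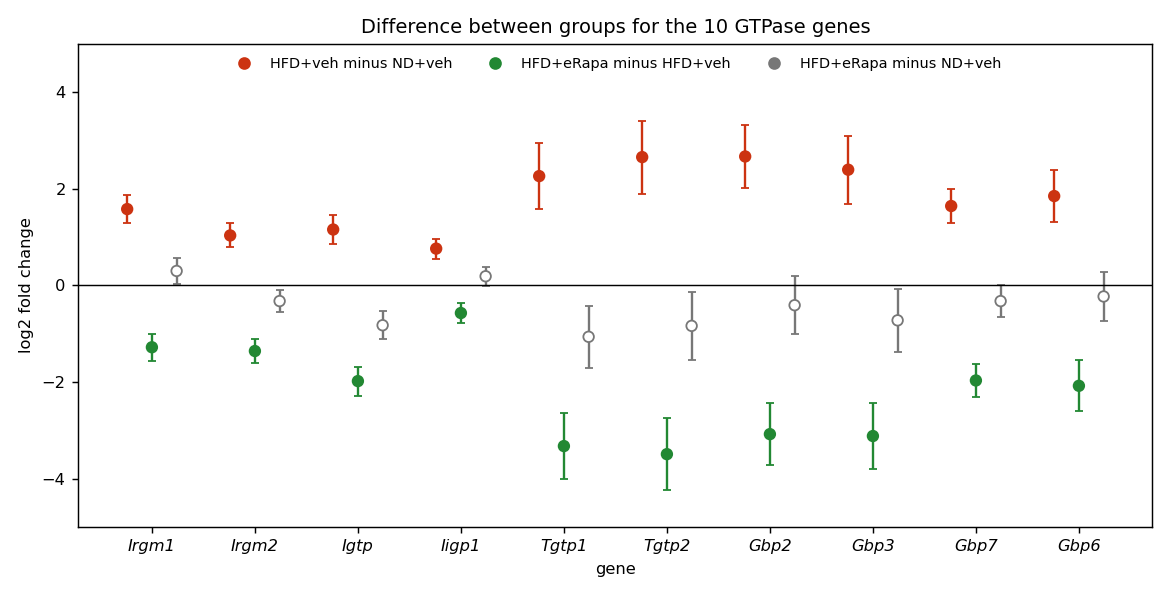
The log2 fold change of each gene (vertical axis) is drawn with its standard error for HFD+veh minus ND+veh (red), HFD+eRapa minus HFD+veh (green) and HFD+eRapa minus ND+veh (grey), from one fit over 24 libraries. Filled points passed an adjusted p of 0.05: all 10 red points lie above 0, all 10 green points lie below 0, and all 10 grey points are open.

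Against ND+veh, the mice that ate the high-fat diet with eRapa showed differences from -1.06 (Tgtp1, SE 0.65) to 0.30 (Irgm1, SE 0.27), with a median of -0.37 on the log2 scale. Igtp came closest to a call, at -0.83 (SE 0.29, edgeR adjusted p = 0.0607), and DESeq2 called it lower (adjusted p = 0.0326). Igtp was also the only one of the 10 with an unadjusted p under 0.05 by edgeR or DESeq2. The sign of several of the other differences turned with the left-out library or the fit: without ND+veh replicate 4, Gbp3, Gbp6, Gbp7 and Tgtp1 were 0.58, 0.68, 0.16 and 0.58 higher in HFD+eRapa. The standard errors were 0.61, 0.65, 0.65 and 0.71 for Gbp2, Gbp3, Tgtp1 and Tgtp2, so a p that missed the threshold does not show equal levels.

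Compared per transcript length, the order of the genes was alike in the 3 groups at the top and differed lower down. Iigp1, Irgm1 and Igtp were the most abundant by median FPKM in every group, at 212, 90.6 and 57.5 FPKM in HFD+veh. Gbp6 and Gbp3, at 3.80 and 3.03 FPKM, came after Irgm2 (12.3 FPKM) in ND+veh, and before it in HFD+veh, where they were at 46.8 and 40.9 FPKM and Irgm2 at 30.4 FPKM. The ranges of these 3 genes overlapped in HFD+veh. The least abundant were Tgtp1 in ND+veh (1.01 FPKM), Gbp2 in HFD+veh (5.27 FPKM) and Tgtp2 in HFD+eRapa (0.70 FPKM). Summed over the 10 genes, the level was 133 to 572 FPKM in ND+veh (median 171), 216 to 703 FPKM in HFD+veh (median 571) and 137 to 281 FPKM in HFD+eRapa (median 185). Iigp1 made up a median of 61.7% of that sum in ND+veh, 43.5% in HFD+veh and 64.4% in HFD+eRapa.

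Markers of other cell types moved with these groups, and the GTPase genes differed in how they stood against them. Of the 10 macrophage and Kupffer cell markers, 4 were higher with the diet and 8 lower with eRapa. The 6 endothelial markers were 1 higher and 6 lower, the 6 stellate markers 2 higher and 6 lower, the 3 neutrophil markers tested of 6 were 2 higher and 2 lower, and both B and plasma cell markers tested of 6 were higher and then lower. Of the 11 T and NK cell markers only Cd4 passed the filter and it was not called, and their sum reached 72.1 CPM in HFD+veh replicate 6 against at most 8.52 CPM in ND+veh and 4.26 CPM in HFD+eRapa. Of the cholangiocyte markers, 3 of 5 were tested, with 3 higher and 1 lower. The 8 hepatocyte markers were 1 lower with the diet and 2 higher with eRapa. Over all genes tested, 16.0% were called higher and 9.86% lower with the diet, and 10.9% higher and 21.1% lower with eRapa. The 1 of 6 endothelial markers higher and the 1 of 8 hepatocyte markers lower with the diet are near these shares.

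HFD+veh replicates 1 and 2 had macrophage marker sums of 165 and 166 CPM, below the ND+veh median of 244 CPM. In each of them 8 of the 10 genes were above the other 7 ND+veh animals, all except Gbp2 and Tgtp2. Their Igtp was 81.2 and 98.0 CPM and their Irgm2 101 and 102 CPM, above the other 7 ND+veh animals (at most 45.4 and 60.3 CPM, ND+veh replicate 4 left aside) and above all HFD+eRapa animals. In the same 2 animals Gbp2, at 6.41 and 4.58 CPM, and Tgtp2, at 0.99 and 1.06 CPM, lay inside the ND+veh range. How reads were divided between Tgtp2 and its near-identical copy Tgtp1 is uncertain, so these Tgtp2 values are too. Tgtp1 was 10.3 and 7.48 CPM in these 2 animals, and its counts were 10.4 and 7.08 times those of Tgtp2. HFD+veh replicate 5 had a macrophage sum of 2513 CPM and the lowest level of its group for 8 of the 10 genes, Igtp being 32.2 CPM and Tgtp1 4.81 CPM. This animal was still above the ND+veh median for 9 of the 10 genes and above all the other 7 ND+veh animals for 6. HFD+veh replicate 6 had the highest macrophage, T and NK cell, B cell and neutrophil marker sums and the highest Gbp2, Gbp3, Gbp6, Gbp7 and Tgtp2.

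**Figure D3:**
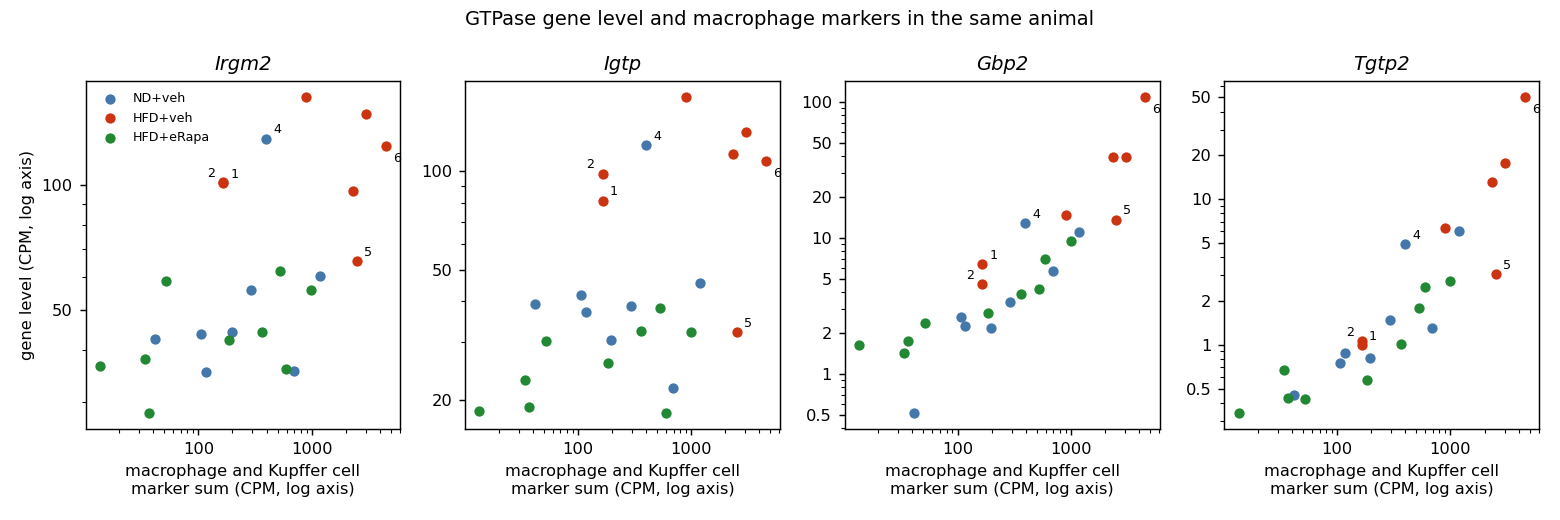
For 4 genes, CPM (vertical, log scale) is plotted against the summed CPM of 10 macrophage and Kupffer cell markers (horizontal, log scale), with 1 point per animal in ND+veh (blue), HFD+veh (red) and HFD+eRapa (green). Numbers mark ND+veh replicate 4 and HFD+veh replicates 1, 2, 5 and 6. For Irgm2 and Igtp, HFD+veh replicates 1 and 2 sit at 81.2 to 102 CPM although their marker sums are 165 and 166 CPM. For Gbp2 and Tgtp2 they sit among the ND+veh animals, but how reads were divided between Tgtp2 and its near-identical copy Tgtp1 is uncertain.

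A marker score was then added to the fit as a covariate. The immune score used only markers that passed the filter. These were 10 macrophage and Kupffer cell, 3 neutrophil and 2 B and plasma cell markers and 1 T and NK cell marker, Cd4. T and NK cells are therefore hardly covered by this score. With the mean score of 16 immune cell markers, 3 of 10 genes were called higher with the diet (4.32% of all genes in that fit), Gbp7 (log2 difference 1.18), Irgm1 (1.21) and Irgm2 (0.86), and 3 were called lower with eRapa (3.96% of all genes), Gbp7 (-1.40), Igtp (-1.79) and Irgm2 (-1.14). The other genes kept their direction in both comparisons but were not called. With the diet their differences ranged from 0.26 for Tgtp2, which was 2.66 without the score, to 1.46 for Tgtp1. Igtp moved little, from 1.16 to 0.99 (edgeR adjusted p = 0.0683). With the score of 15 endothelial, stellate and cholangiocyte markers, 9 of 10 were called higher with the diet, all except Tgtp2 (6.43% of all genes), and 3 lower with eRapa, Gbp7, Igtp and Irgm2 (3.31% of all genes). In this design the scores differ between the groups, so a covariate also removes part of any group difference, and the part of other cells in each difference was not tested.

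**Figure D4:**
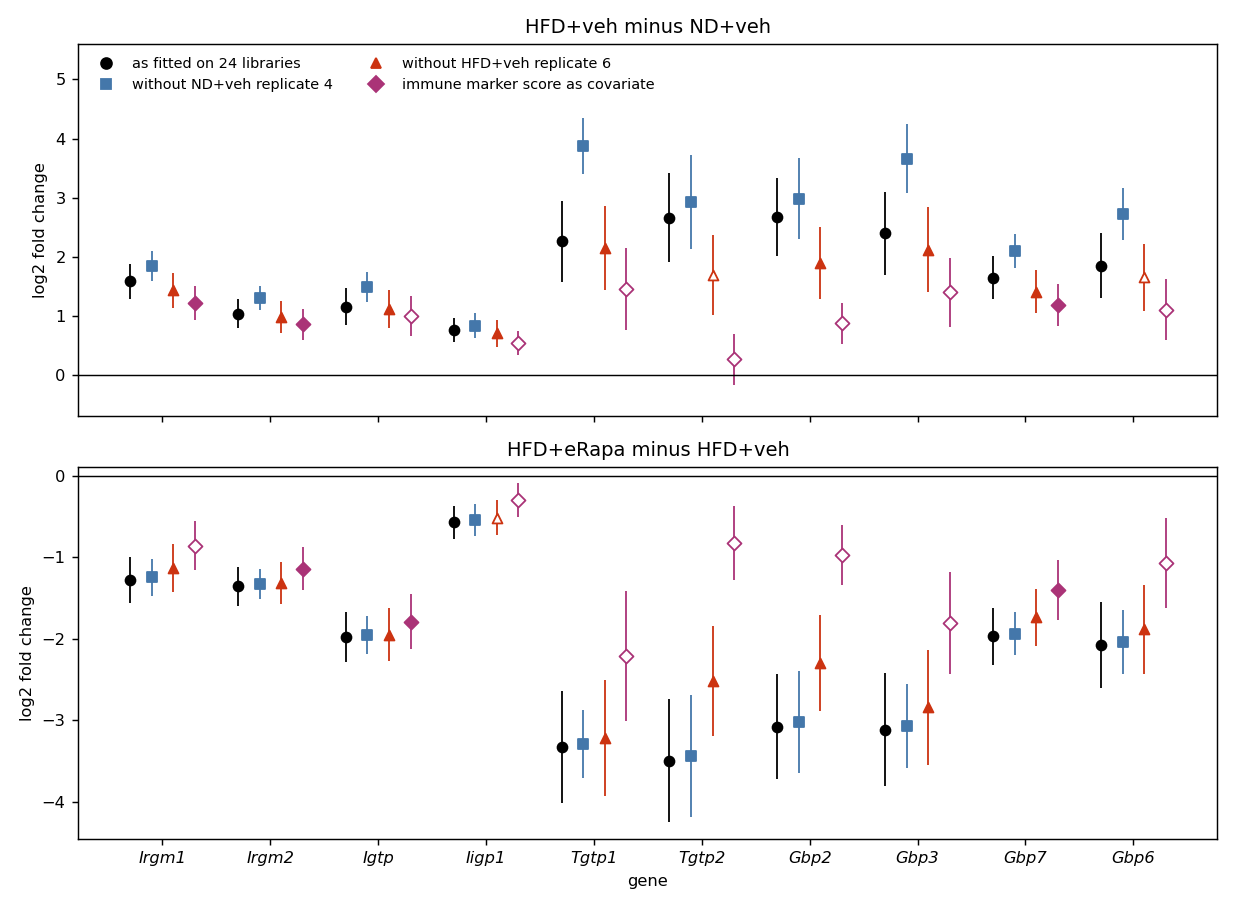
The log2 fold change of each gene with its standard error is drawn as fitted on 24 libraries (black circles), without ND+veh replicate 4 (blue squares), without HFD+veh replicate 6 (red triangles) and with the immune marker score in the fit (purple diamonds), for the diet (upper) and eRapa (lower). Filled symbols passed an adjusted p of 0.05. All values keep the sign of the black circles, and with the score the filled symbols are Irgm1, Irgm2 and Gbp7 above and Irgm2, Igtp and Gbp7 below.

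Most other genes of the 2 families moved in the same directions. Of 17 further family genes listed, 15 were tested. With the diet 10 were higher (16.0% of all genes) and 1 lower (9.86%). With eRapa 10 were lower (21.1% of all genes), and the medians in the 2 comparisons were 2.49 and -2.86 on the log2 scale. Gbp4, Gbp5, Gbp8 and Gbp9 rose by 2.40, 2.49, 2.69 and 2.68 and were then lower, at -3.15, -3.33, -3.40 and -3.39. The IRG-like genes Gm5431, Gm12250, 9930111J21Rik1, 9930111J21Rik2 and Ifi47 rose by 3.39, 2.92, 2.98, 3.02 and 1.35 and were lower with eRapa, at -3.80, -3.77, -2.86, -3.29 and -1.32. Gbp2b was called with the diet only (2.67, then -1.96 with edgeR adjusted p = 0.0569), and Gbp10 with eRapa only (1.72 with adjusted p = 0.0812, then -2.20); whether these 2 responses differ was not tested.

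The 4 others were Gm4951, F830016B08Rik, Gbp11 and Irgq. Gm4951, an IRG-like gene, ranged over 101 to 147 CPM in ND+veh, 110.3 to 177 CPM in HFD+veh and 111 to 206 CPM in HFD+eRapa (log2 differences 0.13 and 0.19, adjusted p 0.451 and 0.222). F830016B08Rik (0.30 and -0.25) and Gbp11 (-0.40 and 0.22) were not called either. Irgq, a divergent relative, was lower with the diet (-0.62, edgeR adjusted p = 0.0112). In HFD+eRapa against ND+veh, 0 of the 15 were called (edgeR, with 1 at an unadjusted p under 0.05, and 0 by DESeq2). With the immune marker score in the fit, 0 of the 15 were called with the diet and 1 with eRapa (edgeR). Over all 13847 genes, 1229 and 979 were called in that fit. Of the 15, 3 and 3 were at an unadjusted p under 0.05. Gbp10 shares sequence with Gbp6 and 46.3% of its exonic length with Gm43302, so its single value is uncertain. Gbp8, Gbp9 and Gbp4 overlap each other by only 0.801% to 1.77% of their exonic lengths. How far they share sequence elsewhere was not measured.

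**Figure D5:**
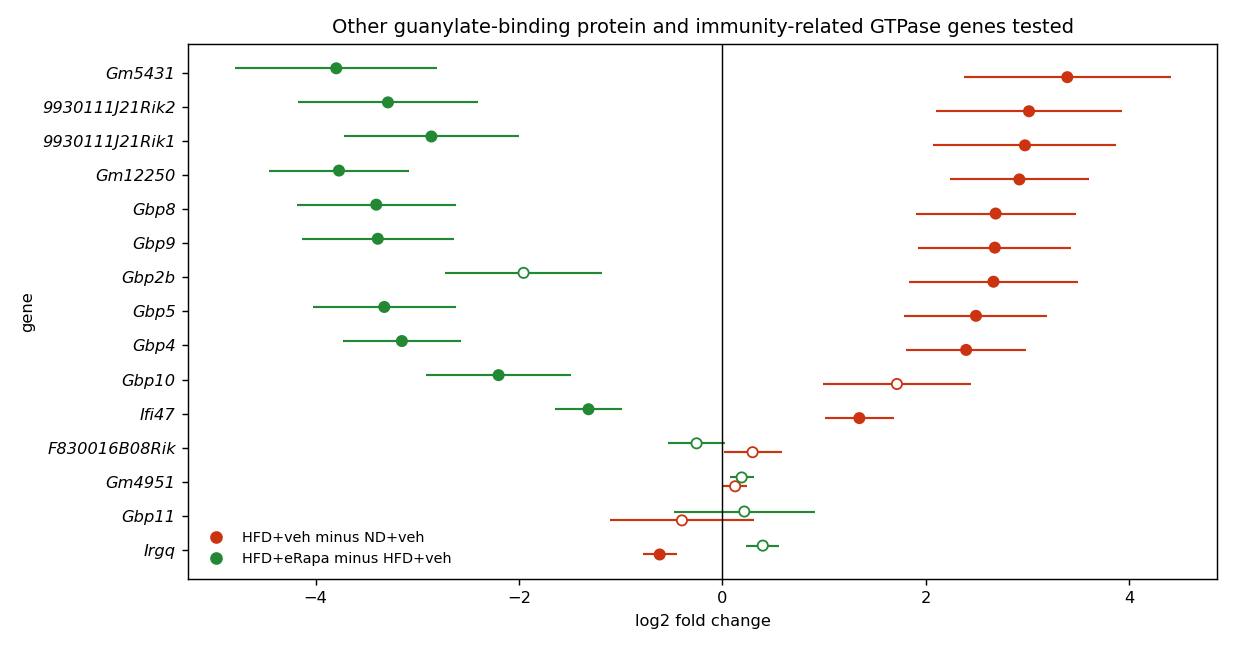
The log2 fold change (horizontal axis, with its standard error) of the 15 other family genes tested is drawn for HFD+veh minus ND+veh (red) and HFD+eRapa minus HFD+veh (green). Filled points passed an adjusted p of 0.05; Gm5431, at 3.39 and -3.80, lies at both ends, and Gm4951, Gbp11 and F830016B08Rik are open in both comparisons, between -0.40 and 0.30.

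Upstream of these genes, the ligand was near the limit of detection and the receptor was measured well. Ifng, which encodes interferon gamma, did not pass the filter: 7 counts were found over 8 ND+veh libraries, 29 over 7 HFD+veh libraries, of which 17 came from replicate 6, and 9 over 9 HFD+eRapa libraries. Without the filter on low counts its log2 difference was 2.01 with the diet (SE 1.01, edgeR adjusted p = 0.202) and -1.56 with eRapa (SE 0.97, edgeR adjusted p = 0.279). With so few counts no difference was called, which does not show equal levels. Ifngr1, the ligand-binding receptor chain, rose by 1.09 with the diet (log2, edgeR adjusted p = 0.0269) and was lower with eRapa (-1.53, adjusted p = 0.00247). Ifngr2, the second chain, had a log2 difference of 0.49 with the diet that did not pass the test (edgeR adjusted p = 0.0511) and lower with eRapa (-0.50, adjusted p = 0.0316). Irf1, a transcription factor induced by interferon gamma that binds response elements, ran from 13.9 to 28.6 CPM in ND+veh, up to 39.4 CPM in HFD+veh (median 31.0) and 11.0 to 20.6 CPM in HFD+eRapa. It rose by 0.54 with the diet (edgeR adjusted p = 0.0114), was lower with eRapa (-0.94, adjusted p = 8.28e-05) with no overlap between the groups, and was also below its ND+veh level with eRapa (-0.41, adjusted p = 0.0487). Irf8, a related factor that is most abundant in myeloid cells, changed by 2.08 and -2.72 (edgeR adjusted p = 0.0251 and 0.00379).

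Of the 19 genes listed for the interferon gamma pathway, 17 were tested. With the diet 11 were higher and 0 lower, and 15 were lower with eRapa. In the third comparison 1, Irf1, was lower, which is near the 6.56% of all genes called lower there. Without ND+veh replicate 4 and HFD+veh replicate 6, 7 of 16 were higher with the diet (8.56% of all genes) and 13 lower with eRapa (14.5%). As fitted on all libraries, 16.0% of all genes were called higher with the diet and 21.1% lower with eRapa. The largest change in both comparisons was that of Cd274, which encodes the checkpoint ligand PD-L1 (2.82 and -3.02). With the immune marker score in the fit, 4 and 3 of the 17 were called, against 1229 and 979 of all 13847 genes. Of 6 tested genes of the type I and III interferon pathway, 3 were higher with the diet (16.0% of all genes). The same 3 were lower with eRapa (21.1% of all genes). The largest change was that of Il10rb, a receptor chain shared by type III interferon and interleukin 10 (1.98 and -2.45). Irf7 (1.73 and -2.30) and Usp18 (1.87 and -2.22) were the others called. The type I receptor genes Ifnar1 (0.06 and 0.03) and Ifnar2 (-0.02 and -0.11) were not called, nor was Tyk2 (-0.004 and -0.22). Of the other interferon-inducible GTPases Mx1, Mx2 and Gvin1, 2 were higher with the diet (16.0% of all genes), led by Gvin1 (2.49). All 3 were lower with eRapa (21.1% of all genes), led by the antiviral Mx1 (-4.10). In ND+veh replicate 4, Mx1 was at 23.6 CPM and Gvin1 at 25.6 CPM, each the highest of its group, against group medians of 0.51 and 1.23 CPM.

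Partners of the GTPases were examined next. The autophagy conjugation proteins, which guide IRG and GBP proteins to membranes, were encoded by 12 tested genes, of which 2 were higher and 2 lower with the diet and 5 were higher with eRapa, and 5 were higher in the third comparison. Over all genes tested, 9.86% were called lower with the diet, 10.9% higher with eRapa and 6.93% higher in the third comparison. The 2 of 12 higher with the diet are near the 16.0% of all genes. Map1lc3a, an LC3 gene, had the largest change in both (-0.67, edgeR adjusted p = 0.0237, and 0.99, adjusted p = 0.00156). It ran from 25.6 to 42.1 CPM in ND+veh, 6.32 to 30.9 CPM in HFD+veh and 29.3 to 50.4 CPM in HFD+eRapa. Without ND+veh replicate 4 and HFD+veh replicate 6, 1 of the 12 was called with the diet, lower, and 5 with eRapa. Over all 13791 genes in that fit, 1122 were called lower with the diet, and 3352 were called with eRapa, 1354 of them higher. The 1 of 12 lower with the diet is near the share over all genes. The 8 inflammasome genes act after GBP proteins expose bacterial products. With the diet 8 were higher (16.0% of all genes), led by the DNA sensor Aim2 (3.24). With eRapa 8 were lower (21.1% of all genes), led by Casp1 (-3.25). Without ND+veh replicate 4 and HFD+veh replicate 6, 4 and 5 were called, where 8.56% of all genes were higher with the diet and 14.5% lower with eRapa. In either comparison 0 were called with the immune marker score in the fit (edgeR, with 3 and 1 at an unadjusted p under 0.05). In that fit 4.32% of all genes were higher with the diet and 3.96% lower with eRapa.

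Genes of like pattern were sought among 12331 tested genes. The 10 members, the other listed family genes and genes with predicted-gene or clone names were left out and not ranked. Over the 24 libraries, the candidates most like the mean of the 10 were Herc6, Ifit3b, Rsad2, Ifit3 and Ifi44. Pearson r was 0.981, 0.979, 0.976, 0.974 and 0.973 between their log2 CPM and the mean z-score of the 10 genes. These are interferon-stimulated genes, and within groups, after group means were subtracted, their r was 0.945 to 0.970. The points share library, depth and cell mixture, and the correlations are given as a description. Herc6, the first, changed by 1.69 and -1.81 on the log2 scale, and Ifi44 by 2.48 and -4.12.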

How the data were processed

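Poly(A) RNA libraries from 24 hepatocyte preparations, 1 per mouse, were analysed in the groups the labels give. The authors aligned reads with STAR to mm10, using SAMtools 1.1.0, and counted them per gene with HTSeq 0.11.2 on the Gencode annotation; these deposited counts are raw whole numbers, and the strand setting is not given in the sources used here. The deposited FPKM values were made by the authors with Cufflinks 2.2.1 and are scaled to gene length and depth. Library totals were 17739252 to 25945134 counts. The counts were filtered with filterByExpr, scaled by TMM and tested with edgeR 4.0.16 (quasi-likelihood, robust) in R 4.3.3, with 24 libraries in one fit and Benjamini-Hochberg adjustment over 13847 genes at 0.05. CPM are counts per TMM-scaled depth, and log2 CPM used a prior count of 2. Alternatives used DESeq2 1.42.0 and limma 3.58.1 (voom, and log2(FPKM + 1)), other scaling and filters, a replicate block, marker scores and left-out libraries. The steps were tested on simulated data. Each animal is 1 sample. In the main fit a p-value sets a group difference against the spread between animals, which was estimated over all 3 groups together.

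The 10 members were taken by gene name. Of the other lists, the genes named are all tested family genes, Ifng, Ifngr1, Ifngr2, Irf1 and Irf8, and the largest called change of each list per comparison. Irf7, Usp18, Ifnar1, Ifnar2, Tyk2 and the values of Mx1 and Gvin1 in ND+veh replicate 4 were added after their values were seen. Genes of like pattern were the 5 with the highest Pearson r to the members' mean z-score. Members, listed family genes and genes with predicted-gene or clone names were not candidates. The members and lists were chosen with earlier results of these data known. Positions and shared sequence come from a Gencode annotation of the same build that held 55240 of the 55421 gene IDs, and promoters from RefSeq. No columns of other samples were present.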

Additional observations from a re-analysis of the deposited data

Results flagged for a closer look

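Within-group spread was checked for 57 sets of values, the log2 CPM of the members, the library totals and the marker sums in each group. In 8 of them 1 sample lay far from the others, judged by its gap to the nearest sample as a share of the whole range; chance alone does this in about 1 of 20 sets. ND+veh replicate 4 accounted for 6. Its gap was 0.547 of the range for Gbp7, 0.57 for Igtp, 0.59 for Irgm2 and 0.609 for Tgtp1, where it was the highest of 8. In the same library the hepatocyte marker sum was the lowest of 8, with a gap of 0.629, and the cholangiocyte marker sum was the highest, with a gap of 0.623. HFD+eRapa replicate 6 was the lowest of 9 for Tgtp1, with a gap of 0.5 of the range (1.24 CPM). The library total of HFD+veh replicate 3, 19847642 counts against 21261951 in the nearest library, was the lowest of 7, with a gap of 0.647.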

How the results depend on the processing

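The direction of all 10 genes was kept with the diet and with eRapa under every alternative run. With the diet, 10 calls became 3 with the immune marker score in the fit and 8 to 10 when single libraries were left out. It was 8 with only the 2 groups compared (Gbp6 and Tgtp1 lost) and 9 with voom, without ND+veh replicate 4 and HFD+veh replicate 6 and with the block (Tgtp2 lost in each) and with no filter (Tgtp1 lost). With eRapa, 10 became 3 with the immune score, 3 with the endothelial, stellate and cholangiocyte score and 9 to 10 with libraries left out. Between HFD+eRapa and ND+veh, 0 calls became 1 under DESeq2, 1 with only the 2 groups compared, and 0 to 1 with libraries left out, 1 being Igtp without ND+veh replicate 6, HFD+veh replicate 5 or HFD+eRapa replicate 1. In that comparison the sign turned for several genes, none of them called. With libraries left out, Gbp3 ran from -0.90 to 0.58, Gbp6 from -0.39 to 0.68, Gbp7 from -0.44 to 0.16 and Tgtp1 from -1.24 to 0.58, positive only without ND+veh replicate 4. Without that library and HFD+veh replicate 6, Gbp3, Gbp6, Gbp7 and Tgtp1 were 0.61, 0.71, 0.18 and 0.60. With the endothelial, stellate and cholangiocyte score, Gbp2, Gbp3, Gbp6, Gbp7 and Tgtp2 were 0.59, 0.37, 0.53, 0.016 and 0.25. Gbp3 and Gbp6 were 0.043 and 0.29 with voom and 0.0082 and 0.21 on log2(FPKM + 1), and Gbp6 was 0.035 with the immune score; the cause was not tested. For animals with the same number, deviations from the group means correlated at over 0.1 in 5 of 7 pairs of HFD+veh and ND+veh (mean r 0.32, from -0.36 to 0.73), in 2 of 7 of HFD+eRapa and HFD+veh (mean -0.24) and in 2 of 8 of HFD+eRapa and ND+veh (mean -0.20). As this was not so for every pair of any comparison and the labels name no shared litter or day, the numbers were not taken as pairing. With the replicate block, 9, 9 and 0 members were called in the 3 comparisons, and Gbp2, Gbp3, Gbp6 and Tgtp1 were 0.14, 0.20, 0.37 and 0.060 in the third. At least 10 counts in every library left 8 members, all called with the diet and with eRapa. Over all genes, calls with the diet were 3584 as fitted and 1798 with voom, 2461 with the block, 1229 and 1744 with the 2 scores, 2333 with only 2 groups and 2302 without the 2 libraries; with eRapa they were 4430, against 2809 with at least 10 counts, 2531 with the block and 979 and 823 with the scores.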
